A study of Mus musculus with 35 samples.

Results

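Microglia of the cerebellum were compared with microglia of the forebrain in adult mice in which Nestin-Cre had deleted Csf1. The comparison holds 7 of the 35 libraries of the series, taken by their labels alone. These are 3 cerebellum libraries, numbered 1, 3 and 4, and 4 forebrain libraries, numbered 1 to 4, all from NesCreCsf1fl/fl mice at 9 weeks of age. Every one of the 7 carries the floxed Csf1 alleles and the Cre transgene, so no mouse with intact Csf1 enters this contrast. The series measured RNA of sorted primary microglia from 2 brain regions of mice lacking Csf1 or Il34, and its title names homeostasis under disturbed CSF1R signalling as the subject. The same contrast of regions was also computed in Csf1fl/fl mice without Cre at 9 weeks (3 libraries per region), in NesCreCsf1fl/fl pups at postnatal day 8 (P8, 3 libraries per region) and in Il34Lacz/Lacz mice at 9 weeks (2 cerebellum and 3 forebrain libraries). None of these shares a library with the 9-week NesCreCsf1fl/fl groups. The Nestin promoter drives Cre in neural progenitors, so cells of other lineages keep Csf1, and Il34 is intact in these mice. The samples are called biological replicates in the design text. The labels used here do not say which libraries came from 1 animal, how many animals were pooled or of which sex they were, so the p-values measure the spread between these libraries.

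Microglia are the resident macrophages of the brain parenchyma and need signals through the receptor tyrosine kinase CSF1R to survive. Its ligands are CSF1 and IL-34. In the mouse brain IL-34 is made mainly by neurons of the forebrain, while CSF1 is the more prominent ligand in the cerebellum and in white matter. Adult cerebellar microglia are known to be sparser and less branched than those of cortex and striatum, and to differ from them in genes of immune response and clearance.

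The labelled cell type was checked against its defining genes. Levels are given as CPM (counts scaled to a common library size), computed from read counts recovered from the deposited values and scaled over all 7 libraries together. The chemokine receptor gene Cx3cr1 stood at 4059 to 5767 CPM over the 7 libraries and the transcription factor gene Sall1 at 357 to 491 CPM. Between 1200692 and 1617480 reads fell in tested genes of the cerebellum libraries and between 1382643 and 1735584 in those of the forebrain. The first principal component held 29.3% of the variance and separated the regions. The second held 18.3% and set libraries 1 and 3 apart from library 4 in the cerebellum and from libraries 2 and 4 in the forebrain. Granule genes of neutrophils were listed in the cerebellum table and not in the forebrain table, and they were uneven. The deposited value of Ngp was 161, 307 and 1.76 in cerebellum libraries 1, 3 and 4, and that of S100a9 was 111, 178 and 5.08. Library 4 was therefore nearly free of them, and counts below are also given with library 4 as the only cerebellum library. In the 3 Csf1fl/fl cerebellum libraries Ngp stood at 109, 140.3 and 332.

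Of 9152 genes tested, 357 differed between the regions (3.90%; edgeR's quasi-likelihood test, Benjamini-Hochberg adjusted p under 0.05). In cerebellar microglia 166 genes were higher (1.81%) and 191 were lower (2.09%). The higher genes differed by more. Among them 81 exceeded 2-fold and 9 exceeded 4-fold, with a median log2 difference (cerebellum minus forebrain) of 0.97, while among the lower genes 32 exceeded 2-fold and 3 exceeded 4-fold, with a median of -0.60. The median over all tested genes was 0.00295. The lower genes were the more abundant, with a median average log2 CPM of 7.79 against 6.21 for the higher genes and 5.56 for all. All 3 cerebellum libraries lay above all 4 forebrain libraries for 629 genes (6.87% of those tested) and below them for 696 (7.60%). Of the called genes this held for 158 of 166 and 189 of 191. Genes named below for the largest differences were taken only from these, so their lack of overlap follows from that choice. With cerebellum library 4 as the only one of its region 144 genes were called, of which 119 were among the 357. In that fit the forebrain libraries alone give the spread, and the lone library is assumed to vary as they do. Of 76 named genes called, 29 did not pass it. For some of these the log2 difference was close to that with all 3 libraries, as for Irf7 (1.57 against 1.54), Csf2ra (0.94 against 1.02) and Ctsd (-0.33 against -0.35). For others it was nearer to no difference than the value given below, as for Slco1a4 (0.54), Scd2 (-0.30) and Trf (-0.17). A call missed there therefore does not by itself show whether the difference was smaller. Without cerebellum library 4 the count was 205, and without cerebellum library 3 it was 229.

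**Figure D1:**
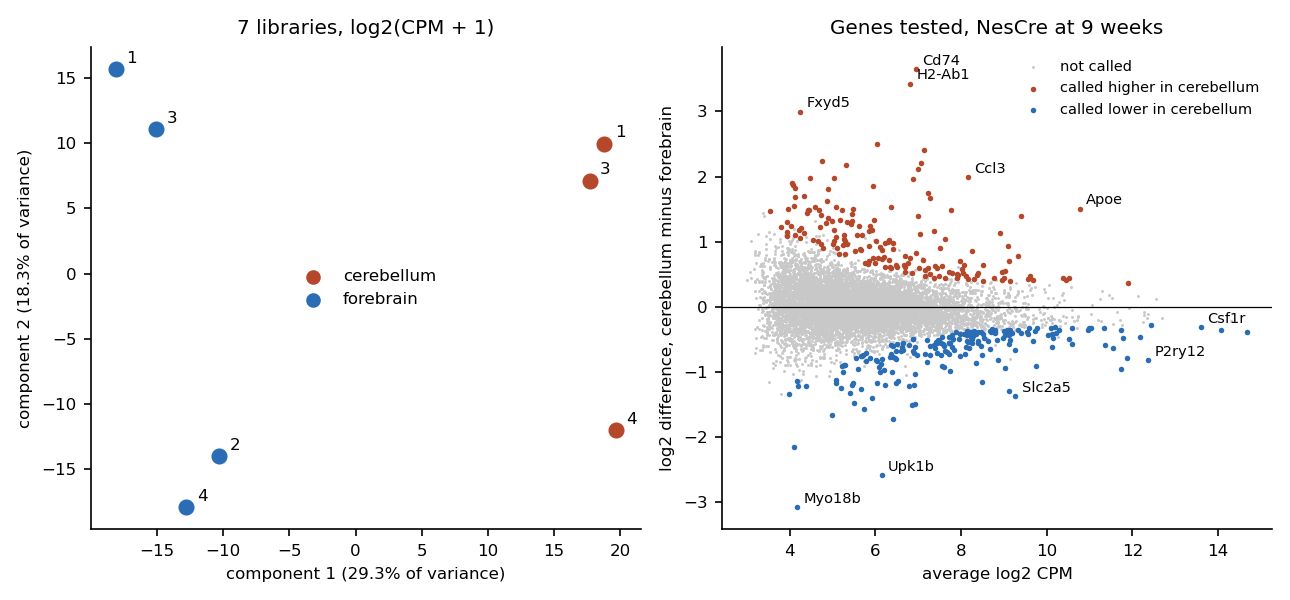
Left: the 7 libraries, marked with their replicate numbers, on the first and second principal components of log2(CPM + 1), with 29.3% and 18.3% of the variance; regions separate on the first, and libraries 1 and 3 lie apart from the others of their region on the second. Right: log2 difference between cerebellar and forebrain microglia (vertical axis) against average log2 CPM (horizontal axis), 1 point per gene, with the 166 higher and 191 lower genes coloured; Cd74 and H2-Ab1 lie highest and Myo18b is among the lowest.

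Genes of major histocompatibility complex (MHC) class II, which present peptides to CD4+ T cells, showed the largest increases in cerebellum. Cd74, the invariant chain that escorts class II molecules, stood at 286, 349 and 142 CPM in cerebellum libraries 1, 3 and 4 and at 7.38, 12.4, 30.3 and 29.7 CPM in forebrain libraries 1 to 4. The lowest cerebellum library was above the highest forebrain library, and both regions varied between libraries. The log2 difference was 3.65 ± 0.30 (SE; adjusted p = 4.02e-08). H2-Ab1, the beta chain of class II molecule I-A, stood at 286, 283 and 133 CPM in cerebellum and 14.8, 13.9, 28.3 and 27.9 CPM in forebrain. Its log2 difference was 3.43 ± 0.25 (adjusted p = 8.21e-09). Library 4 was the lowest cerebellum library for both genes and exceeded every forebrain library. The part of other cells in these values was not tested. The alpha chain H2-Aa and the beta chain H2-Eb1 of molecule I-E were listed in the cerebellum table and not in the forebrain table. That table lists genes that exceed 10 in every library of 1 of its groups or of both, so the difference of these genes could not be tested. Their deposited values in cerebellum libraries 1, 3 and 4 were 229, 196 and 91.3 for H2-Aa and 125, 149 and 69.8 for H2-Eb1. Among 16 antigen presentation genes tested 4 rose in cerebellum and none fell, with a median log2 difference of 0.193. The other called members were the class I heavy chains H2-D1 (log2 difference 0.82, adjusted p = 0.000546) and H2-K1 (0.64, adjusted p = 0.000834). These class I genes are near-identical copies of each other and of further family members, so reads may have been shared between them.

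All of these genes except Cd74 lie in the H2 complex on chromosome 17 (mm10), with H2-K1 at chr17:33996017-34000347, H2-Ab1 at chr17:34257689-34269419, H2-Aa at chr17:34282744-34287823, H2-Eb1 at chr17:34305867-34316674 and H2-D1 at chr17:35262730-35267499. Class II promoters are known for a conserved Y box, the inverted CCAAT element bound by NF-Y. The 250 bases before the start site are shown for the 2 class II genes that the RefSeq promoter table (GRCm38.p6) holds, because both were listed in cerebellar microglia and in neither case in the forebrain table. Capitals mark the Y box as searched, CTGATTGG on either strand.
H2-Aa (chr17:34287824-34288073, minus strand): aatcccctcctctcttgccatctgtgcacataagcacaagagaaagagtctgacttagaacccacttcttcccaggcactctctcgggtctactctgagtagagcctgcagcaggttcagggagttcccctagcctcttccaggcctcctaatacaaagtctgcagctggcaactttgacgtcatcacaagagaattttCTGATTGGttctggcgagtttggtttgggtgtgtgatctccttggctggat
H2-Eb1 (chr17:34305617-34305866, plus strand): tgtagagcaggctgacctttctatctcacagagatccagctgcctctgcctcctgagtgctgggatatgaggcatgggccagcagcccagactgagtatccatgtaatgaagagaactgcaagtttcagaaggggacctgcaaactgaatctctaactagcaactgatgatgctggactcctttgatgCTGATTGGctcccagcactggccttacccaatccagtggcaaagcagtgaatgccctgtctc
The match ended 43 bases before the start site in H2-Aa and 54 bases before it in H2-Eb1. The same 8 letters occurred in 3.83% of 32851 mouse promoters of this length, in 5% of those of tested genes, in 7.19% of those of genes higher in cerebellum and in 5.35% of those of genes lower there. A match is a description of the sequence only.

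Chemokines and other inflammatory mediators were higher in cerebellar microglia as a group. Of 18 such genes tested 9 rose and none fell, and the median log2 difference was 0.458. Their summed level was 4138 to 4486 CPM in cerebellum and 2261 to 2640.5 CPM in forebrain. Ccl12, a CC chemokine that attracts monocytes, stood at 225, 198 and 298 CPM in cerebellum and 45.7, 51.2, 61.2 and 49.9 CPM in forebrain. Its forebrain libraries were close together and all far under the cerebellum libraries (log2 difference 2.21 ± 0.16, adjusted p = 7.63e-09). Its neighbour Ccl2, also a monocyte attractant acting on CCR2, stood at 205, 223 and 317 CPM and 86.3, 62.1, 84.1 and 64.1 CPM (log2 difference 1.75 ± 0.16, adjusted p = 1.42e-07). Ccl3, a ligand of CCR1, stood at 458, 468 and 565 CPM in cerebellum and 72.3, 125, 124 and 177 CPM in forebrain. Forebrain library 1 was the lowest and forebrain library 4 the highest of that region, without reaching any cerebellum library (log2 difference 1.99 ± 0.17, adjusted p = 6.51e-08). Ccl4, an inflammatory chemokine closely related to Ccl3, stood at 291, 353 and 381 CPM and 71.6, 148, 157 and 111 CPM (log2 difference 1.49 ± 0.17, adjusted p = 5.56e-06). The 4 chemokines form 2 groups on chromosome 11, Ccl2 at chr11:82035571-82037453 with Ccl12 at chr11:82101845-82103400, and Ccl3 at chr11:83647844-83649355 with Ccl4 at chr11:83662584-83664683. The other 5 called members were Nfkbia, Nfkbiz, Cd14, Tlr2 and Tnf.

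Nfkbia encodes the inhibitor that holds NF-kappaB in the cytoplasm and is itself a target of NF-kappaB. It stood at 956, 557 and 588 CPM in cerebellum and 421, 287, 310.1 and 261 CPM in forebrain, a log2 difference of 1.13 ± 0.16 (adjusted p = 7.55e-05). The regions did not overlap. The cytokine gene Tnf, present at 17.6, 20.7 and 28.9 CPM in cerebellum and 5.90, 5.12, 15.5 and 5.35 CPM in forebrain, had a log2 difference of 1.50 (adjusted p = 0.0197). The endotoxin co-receptor Cd14 (0.71, adjusted p = 0.000449), the receptor Tlr2 (0.53, adjusted p = 0.0132) and the nuclear regulator Nfkbiz (0.97, adjusted p = 0.000705) were higher by smaller amounts. The 250 bases before the start site of Nfkbia are shown because the promoter of this gene is known for kappaB sites. Capitals mark a match, on the opposite strand, to the NF-kappaB consensus, searched on both strands.
Nfkbia (chr12:55492648-55492897, minus strand): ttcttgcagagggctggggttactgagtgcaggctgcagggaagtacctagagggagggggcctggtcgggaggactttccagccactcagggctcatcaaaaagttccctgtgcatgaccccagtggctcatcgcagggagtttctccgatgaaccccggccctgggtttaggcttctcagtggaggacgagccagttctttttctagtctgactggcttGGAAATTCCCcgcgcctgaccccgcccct
That match ended 19 bases before the start site. The motif occurred in 3.9% of all promoters of this length and in 4.52% of those of tested genes. Among promoters of genes higher in cerebellum 9.15% held it (14 of 153), and among those of genes lower there 4.28% (8 of 187). This difference was not tested.

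Immediate early and heat shock genes, which are induced within minutes by stimulation, stress or tissue dissociation, moved in the same direction. Of 19 tested 8 rose in cerebellum and none fell, with a median log2 difference of 0.411 and a summed level of 10698 to 11324 CPM against 8022 to 9996 CPM. The zinc finger factor Egr1 stood at 1098, 1147 and 903 CPM in cerebellum and 263, 432, 581 and 319.5 CPM in forebrain (log2 difference 1.39 ± 0.17, adjusted p = 8.45e-06). Fos, a subunit of AP-1, stood at 621, 841 and 776 CPM and 297, 296, 553 and 409 CPM (0.94, adjusted p = 0.000618). Both were separated between regions. The zinc finger factor Klf6 differed by 0.86 (adjusted p = 2.52e-05), and Ier2, Dusp1 and Junb were the remaining called members of the immediate early kind. The inducible heat shock genes Hspa1a (1.50, adjusted p = 0.000757) and Hspa1b (1.87, adjusted p = 0.003) are near-identical neighbours, so their reads cannot be assigned with certainty to either one. With cerebellum library 4 as the only one of its region 4 members were called.

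**Figure D2:**
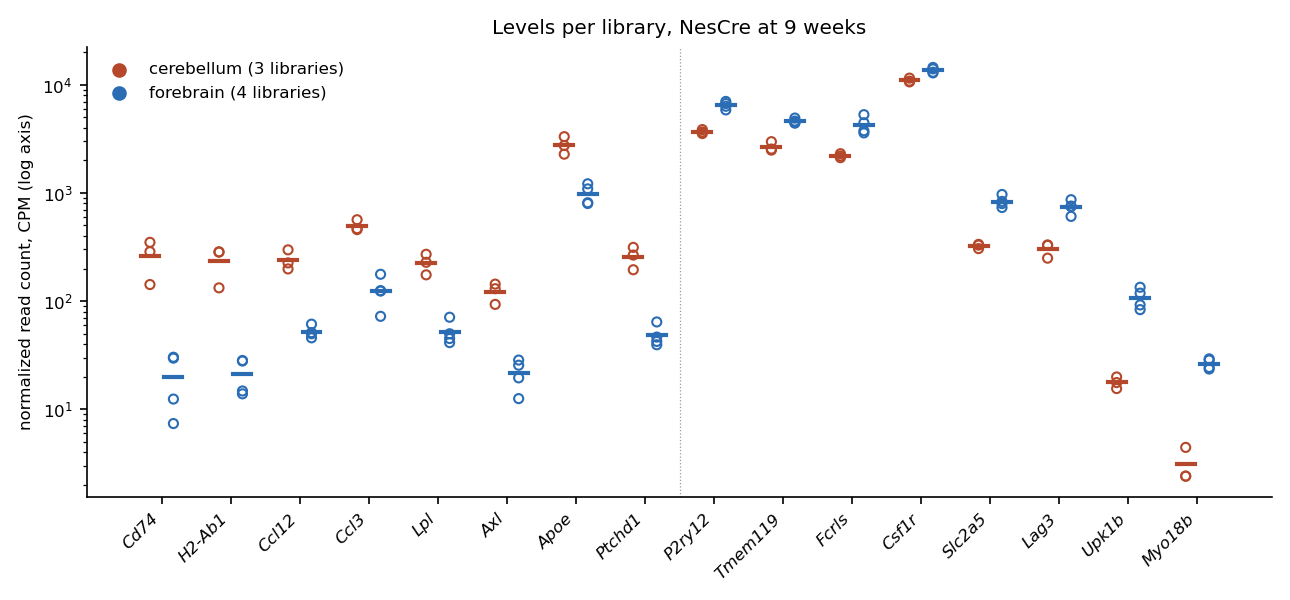
Normalized read count (CPM, log axis) of 16 genes in cerebellum and forebrain libraries of NesCreCsf1fl/fl mice at 9 weeks; each circle is 1 library and each bar a group mean. The genes left of the dotted line, Cd74 to Ptchd1, are higher in every cerebellum library, and those to its right, P2ry12 to Myo18b, are lower.

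Genes of the homeostatic microglial program were lower in cerebellum. Of 29 tested 18 fell and none rose, 28 had a negative log2 difference, and the median was -0.388. Their summed level was 84937 to 90782 CPM in cerebellum and 109789 to 122032 CPM in forebrain. The differences were small beside those of the genes that rose, and they concerned very abundant transcripts. P2ry12, the ADP receptor that directs microglial processes to injury, stood at 3539, 3661 and 3849.9 CPM in cerebellum and 5854, 6326, 6697 and 7012 CPM in forebrain. Every cerebellum library was under every forebrain library (log2 difference -0.81 ± 0.079, adjusted p = 3.53e-07). Tmem119, a membrane protein that marks microglia, stood at 2977, 2487 and 2543 CPM and 4920.2, 4461, 4418 and 4614 CPM (-0.79 ± 0.083, adjusted p = 1.20e-06). The fructose transporter gene Slc2a5 stood at 306, 329 and 334 CPM against 733, 835, 797 and 967 CPM (-1.37 ± 0.11, adjusted p = 1.87e-08). Crybb1, a crystallin gene expressed in adult microglia, stood at 70.6, 51.8 and 45.2 CPM and 156, 181, 128 and 162 CPM (-1.50 ± 0.17, adjusted p = 4.13e-06). The median of the list stayed between -0.416 and -0.342 over the alternatives computed, and 10 members were called with cerebellum library 4 as the only one of its region.

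Fcrls, an Fc receptor-like gene used to tell microglia from other myeloid cells, stood at 2117, 2193 and 2305 CPM in cerebellum and 3588, 4451, 3757 and 5291 CPM in forebrain (log2 difference -0.95 ± 0.11, adjusted p = 2.81e-06). Sall1, which holds microglia in their identity, stood at 357, 384 and 370 CPM and 491, 459, 472 and 467 CPM (-0.35 ± 0.095, adjusted p = 0.0382). That is a narrow separation with no overlap, and the call was lost without cerebellum library 1, 3 or 4 or forebrain library 1, 2 or 3 (adjusted p 0.0583 to 0.155). Cx3cr1 had a log2 difference of -0.23 (adjusted p = 0.193) and did not pass the test. The 250 bases before the start site of Fcrls as RefSeq places it are shown for a gene that fell. In the GENCODE annotation used for positions this gene begins further upstream, so that 214 of these bases, the match included, lie inside it. PU.1 is the factor on which microglia depend, and capitals mark its core motif as searched (GAGGAAG, both strands).
Fcrls (chr3:87263525-87263774, minus strand): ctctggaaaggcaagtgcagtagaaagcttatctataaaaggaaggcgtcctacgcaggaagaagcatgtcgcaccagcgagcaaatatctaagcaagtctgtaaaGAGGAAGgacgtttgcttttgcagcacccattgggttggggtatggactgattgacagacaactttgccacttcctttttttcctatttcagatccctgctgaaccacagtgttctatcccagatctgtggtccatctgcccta
The match ended 137 bases before the RefSeq start site. The motif was found in 10.6% of all promoters of this length and in 10.9% of those of tested genes. It was found in 12.4% of those of genes higher in cerebellum and in 13.4% of those of genes lower there.

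The receptor shared by both ligands and the deleted ligand itself were looked at directly. Csf1r stood at 10802, 10624 and 11514 CPM in cerebellum and 13058, 14012, 12865 and 14457 CPM in forebrain. The regions did not overlap, and the log2 difference of -0.31 ± 0.07 passed the test (adjusted p = 0.0101), but the call was lost without cerebellum library 1 (adjusted p = 0.0537) and without cerebellum library 3 (adjusted p = 0.0779). Reads assigned to Csf1 were few, at 28.1, 20.0 and 27.7 CPM in cerebellum and 31.7, 30.7, 27.6 and 30.3 CPM in forebrain. These levels overlapped (log2 difference -0.25 ± 0.24, adjusted p = 0.696). Nestin-Cre is not known to act in microglia, so their own Csf1 reads are no check of the deletion. Il34 was listed in the cerebellum table only, with deposited values of 9.88, 10.3 and 10.1 in libraries 1, 3 and 4. These lay at the filter of 10, which library 1 did not exceed. The gene was listed through the Csf1fl/fl cerebellum libraries (11.3, 11.7 and 13.6), so the listing shows no region difference without Csf1. Among 22 genes of CSF1R and cytokine receptors 1 rose and 2 fell. Csf2ra, the alpha chain of the GM-CSF receptor, rose from 46.9 to 69.4 CPM in forebrain to 105 to 120.3 CPM in cerebellum (log2 difference 1.02 ± 0.16, adjusted p = 0.000373). The chemokine receptor gene Ccr1 fell from 16.8 to 27.0 CPM to 8.82 to 10.8 CPM (-1.21 ± 0.31, adjusted p = 0.0266), a call lost without cerebellum library 1, 3 or 4 or forebrain library 1 or 2 (adjusted p 0.0566 to 0.103).

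Disease-associated microglia (DAM) genes, induced around plaques, in demyelination and in ageing, were divided. Of 24 tested 8 rose and 2 fell, and the summed level overlapped between regions (35109 to 37982 CPM in cerebellum, 35359.7 to 37664 CPM in forebrain). Axl, a receptor tyrosine kinase for ligands bound to apoptotic cells, stood at 144, 93.2 and 130.2 CPM in cerebellum and 12.5, 28.5, 19.5 and 25.5 CPM in forebrain. The lowest cerebellum library lay far above the highest forebrain library (log2 difference 2.49 ± 0.22, adjusted p = 7.95e-08). Lpl, lipoprotein lipase, stood at 175, 271 and 228 CPM and 41.3, 70.9, 45.1 and 49.9 CPM (2.12 ± 0.18, adjusted p = 4.02e-08). Apoe, the apolipoprotein that microglia raise in disease, was abundant in both regions, at 2281, 2742 and 3313 CPM and 1215, 811, 1089.8 and 798 CPM (1.51 ± 0.13, adjusted p = 6.51e-08). Its regions did not overlap either. Ccl3, Ccl4, Clec7a, Lyz2 and Fth1 were the other members that rose. The lysosomal protease gene Ctsd (-0.35, adjusted p = 0.00146) and the metalloproteinase inhibitor gene Timp2 (-0.72, adjusted p = 0.0307) fell. Spp1, Igf1, Lgals3 and Fabp5 were listed in the cerebellum table only, and the deposited value of Igf1 was 18.6, 32.7 and 34.1 and that of Spp1 24.0, 16.4 and 15.9 in libraries 1, 3 and 4.

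Genes of lipid efflux and cholesterol were divided. Of 20 tested 2 rose, namely Lpl and Apoe, 3 fell and 15 were not called, with 10 positive differences and a median of -0.000413. The cholesterol exporter gene Abcg1 stood at 317, 315 and 388 CPM in cerebellum and 619.8, 642, 624 and 717 CPM in forebrain, with no overlap (log2 difference -0.94 ± 0.11, adjusted p = 3.36e-06). The desaturase gene Scd2 (-0.77, adjusted p = 0.0321) and the lipoprotein receptor gene Lrp1 (-0.36, adjusted p = 0.0385) fell by less. The Scd2 call was lost without cerebellum library 1 or 3 or forebrain library 2 or 3 (adjusted p 0.0636 to 0.189) and the Lrp1 call without cerebellum library 1, 3 or 4 or forebrain library 1, 2 or 3 (adjusted p 0.0517 to 0.223). Of 14 genes of phagocytosis and clearance of apoptotic cells, Axl rose and 2 fell. Mertk, which belongs to the same receptor family as Axl, stood at 748, 693 and 726 CPM in cerebellum and 894, 891, 955 and 983 CPM in forebrain (-0.37 ± 0.089, adjusted p = 0.0179). Its regions were apart by a narrow margin, and the call was lost without cerebellum library 3 or 4 or forebrain library 3 (adjusted p 0.061 to 0.0997). Elmo1, an adaptor in engulfment, differed by -0.33 (adjusted p = 0.0493), a call lost without cerebellum library 1, 3 or 4 or forebrain library 1, 2, 3 or 4 (adjusted p 0.0522 to 0.192). Among 30 lysosomal genes the protease gene Ctsc rose (0.41, adjusted p = 0.0106), while Ctsd, Laptm5 (-0.36, adjusted p = 0.0076) and the hexosaminidase gene Hexa (-0.33, adjusted p = 0.0266) fell. The calls were lost for Ctsc without cerebellum library 4 (adjusted p = 0.128), for Laptm5 without cerebellum library 3 (adjusted p = 0.0589) and for Hexa without cerebellum library 1 or 4 or forebrain library 1 or 3 (adjusted p 0.0598 to 0.159).

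Complement receptors differed while the components of C1q did not pass the test. Of 13 complement and Fc receptor genes 3 rose and none fell. C3ar1, the receptor for the anaphylatoxin C3a, stood at 747, 855 and 929 CPM in cerebellum and 462, 493, 478 and 530.4 CPM in forebrain, without overlap (log2 difference 0.78 ± 0.097, adjusted p = 1.29e-05). The C5a receptor gene C5ar1 (0.51, adjusted p = 0.00679) and the activating Fc receptor gene Fcgr4 (1.29, adjusted p = 0.00679) also rose. Without cerebellum library 4 Fcgr4 had a log2 difference of 1.19 and an adjusted p of 0.0511. C1qc stood at 2966, 3985 and 2337 CPM and 3379.5, 3802, 3679 and 4164 CPM, overlapping values with an adjusted p of 0.244. Among 16 purinergic and ion channel genes the potassium channel gene Kcnj2 (1.11, adjusted p = 0.00386), the chloride channel gene Clic4 (1.31, adjusted p = 0.00347) and the ATP-gated channel gene P2rx4 (0.47, adjusted p = 0.0385) rose. P2ry12 and the ATP-degrading ectoenzyme gene Entpd1 (-0.48, adjusted p = 0.00136) fell. The Kcnj2 call was lost without cerebellum library 4 (adjusted p = 0.0853) and the P2rx4 call without cerebellum library 1, 3 or 4 or forebrain library 1, 3 or 4 (adjusted p 0.06 to 0.149).

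Interferon-stimulated genes were shifted upwards with few calls. Of 27 tested 26 had a positive log2 difference, with a median of 0.379, but 2 were called. Irf7, the regulator that amplifies type I interferon responses, stood at 28.1, 22.2 and 25.9 CPM in cerebellum and 8.12, 9.50, 9.42 and 7.72 CPM in forebrain (log2 difference 1.54 ± 0.29, adjusted p = 0.00248). Slfn2, a Schlafen family member, differed by 0.97 (adjusted p = 0.028), a call lost without cerebellum library 3 or 4 or forebrain library 2, 3 or 4 (adjusted p 0.0525 to 0.184). With cerebellum library 4 as the only one of its region Irf7 differed by 1.57 (adjusted p = 0.0583) and Slfn2 by 1.21 (adjusted p = 0.0861), and the median of the list was 0.338. Of 19 genes of TGF-beta and BMP signalling only the inhibitor of differentiation Id2 was called (0.62, adjusted p = 0.02). Of 17 lineage transcription factors Klf2 rose (1.47, adjusted p = 0.0193) and Etv5 (-0.42, adjusted p = 0.0343) and Sall1 fell. Klf2 is also known as an endothelial factor. The calls were lost for Id2 without cerebellum library 4 or forebrain library 1 or 4 (adjusted p 0.0525 to 0.163), for Klf2 without cerebellum library 4 or forebrain library 2 or 4 (adjusted p 0.0501 to 0.186) and for Etv5 without cerebellum library 1, 3 or 4 or forebrain library 1, 2 or 3 (adjusted p 0.0553 to 0.131).

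Metabolic and cell cycle lists gave no call, while 3.90% of all genes tested were called. At that share lists of this size hold few calls or none, so these counts do not set the lists apart. None of 17 genes of glycolysis and hypoxia was called over the 7 libraries by edgeR without a replicate term, limma or DESeq2 (4 at an unadjusted p under 0.05; without forebrain library 2 edgeR called 1 lower), nor any of 30 genes of oxidative phosphorylation (1 at that level) or of 11 cell cycle genes (3 at that level). The medians were -0.011, -0.0565 and 0.27. The glycolytic genes with the highest levels, Pkm and Aldoa, differed by -0.0014 and -0.17. The proliferation marker Mki67 and the replication gene Top2a were in neither table.

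**Figure D3:**
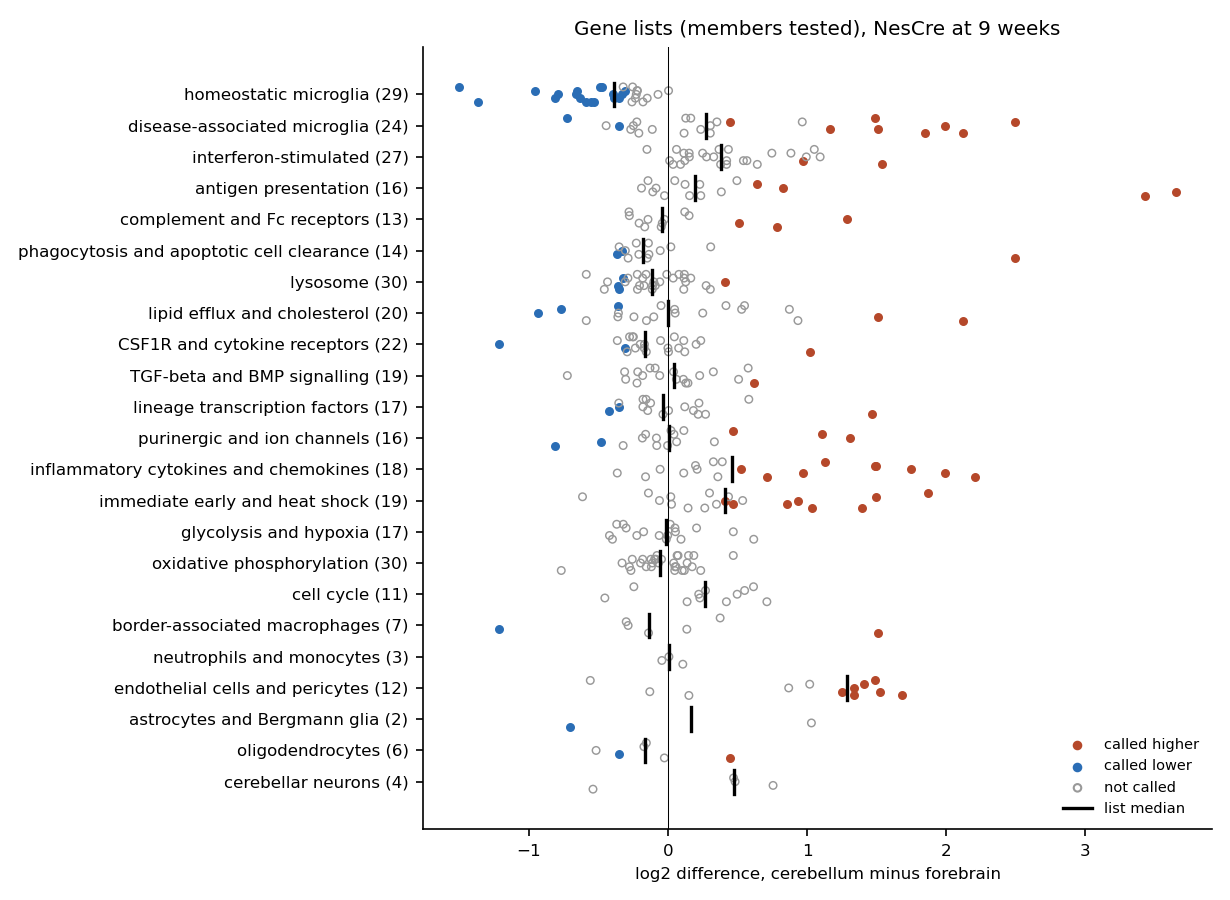
Log2 difference (cerebellum minus forebrain, horizontal axis) of every tested member of each gene list with at least 2 tested members; filled points passed edgeR's quasi-likelihood test, open points did not, and a black bar marks the list's median. Of 29 homeostatic genes 28 lie left of 0, with 18 called lower, and the called members of the inflammatory (9), immediate early and heat shock (8) and endothelial and pericyte lists (7) lie right of it.

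Markers of other cell types were read beside these results. Of 12 endothelial and pericyte genes tested 7 rose in cerebellum (median log2 difference 1.29), with a summed level of 989 to 1392 CPM in cerebellum and 662 to 905 CPM in forebrain. Pdgfrb, the pericyte receptor, stood at 48.1, 50.3 and 60.9 CPM and 24.4, 13.9, 29.6 and 16.6 CPM (1.33 ± 0.25, adjusted p = 0.00186), and Cldn5, an endothelial tight junction gene, at 121, 85.1 and 76.5 CPM and 50.2, 18.3, 63.9 and 16.6 CPM (1.34 ± 0.30, adjusted p = 0.0108). The pericyte gene Rgs5 (1.53, adjusted p = 0.00723), the endothelial adhesion gene Esam (1.41, adjusted p = 0.0163) and the transporter gene Slco1a4 (1.49, adjusted p = 0.0266) also rose, with overlap of the regions for Esam and Slco1a4. Calls were lost for Cldn5 without cerebellum library 1 (adjusted p = 0.0915), for Rgs5 without cerebellum library 4 (adjusted p = 0.067), for Esam without cerebellum library 1 or 4 or forebrain library 3 (adjusted p 0.0506 to 0.215) and for Slco1a4 without cerebellum library 1 or 3 or forebrain library 2 or 4 (adjusted p 0.0642 to 0.218). The defining genes Cdh5, Tek, Vwf and Ly6c1 were in neither table. The number called ran from 2 to 7 when 1 library was left out and was 2 with cerebellum library 4 as the only one of its region. Of 21 genes of neutrophils and monocytes 3 were tested and none was called, 8 were listed in cerebellum only and 10 in neither table. Of 7 border-associated macrophage genes tested, which mark macrophages of the meninges and vessels and also carry class II, Apoe rose and Ccr1 fell, while Mrc1 (44.9, 31.1 and 37.4 CPM in cerebellum, 31.0, 52.6, 57.9 and 43.9 CPM in forebrain, adjusted p = 0.591) was not called, and Cd163, Lyve1, Pf4, Cbr2, F13a1 and Ms4a7 were in neither table.

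In the neural lists the astrocyte glutamate transporter gene Slc1a3 fell (-0.70, adjusted p = 0.00643), a call lost without cerebellum library 3 (adjusted p = 0.064). The other astrocyte gene tested, Sparcl1, stood at 92.3, 38.5 and 128 CPM in cerebellum and 44.3, 36.6, 74.7 and 16.0 CPM in forebrain, overlapping values with a log2 difference of 1.03 (adjusted p = 0.103). It was called higher without cerebellum library 3, without forebrain library 3 and with cerebellum library 4 alone. Gfap and Aqp4 were in neither table. Of 6 genes on the oligodendrocyte list Fth1 rose (0.45, adjusted p = 0.00485) and Trf fell (-0.35, adjusted p = 0.0327), and both are iron genes that microglia also express, while Mog was in neither table. The Trf call was lost without cerebellum library 1 or 3 or forebrain library 1, 2, 3 or 4 (adjusted p 0.0525 to 0.227). With edgeR over the 7 libraries and no covariate, no gene of the 3 neuronal lists or of the lymphocyte list was called. Tested members numbered 4, 1, 1 and 1, while 3.90% of all genes tested were called. Of the cerebellar neuron genes 2 had an unadjusted p under 0.05. The cerebellar neuron gene Chn2 had a log2 difference of -0.54 (adjusted p = 0.054). It was called lower without forebrain library 4 (adjusted p = 0.0191) and by limma on the deposited values (adjusted p = 0.0411). With libraries 1 and 3 against 2 and 4 as a term edgeR also called it lower (-0.56, adjusted p = 0.025). In bulk libraries, fewer cells of a type and less RNA per cell cannot be told apart, and the part of such cells in the results on microglial genes was not tested.

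Outside the lists, the largest differences were found in genes of diverse function. Fxyd5, a regulator of the sodium pump, stood at 45.7, 28.1 and 33.8 CPM in cerebellum and 5.90, 2.92, 2.69 and 5.94 CPM in forebrain (log2 difference 3.00 ± 0.34, adjusted p = 4.51e-06). Ptchd1, a Patched domain gene, stood at 195, 314 and 266 CPM and 46.5, 39.5, 42.4 and 64.1 CPM. It had the smallest adjusted p of all genes beside that of Ccl12 (2.41 ± 0.17, adjusted p = 7.63e-09). The proton-sensing receptor gene Gpr65 stood at 32.9, 71.8 and 36.8 CPM and 5.17, 6.58, 15.5 and 11.9 CPM (2.24 ± 0.34, adjusted p = 0.000209). Each of these genes was at a level several times higher in cerebellum. At 2.69 to 5.94 CPM the forebrain values of Fxyd5 rest on few reads. The motor gene Myo5a differed by 2.17 (adjusted p = 2.14e-06), Emp3 by 1.98 (adjusted p = 0.000171), the lectin receptor gene Cd72 by 1.98 (adjusted p = 1.09e-05), the metalloproteinase gene Adamts1 by 1.96 (adjusted p = 1.41e-05) and the sodium pump subunit gene Atp1b2 by 1.91 (adjusted p = 0.00432).

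On the lower side, Myo18b, an unconventional myosin gene, stood at 2.41, 4.44 and 2.41 CPM in cerebellum and 24.4, 29.2, 23.5 and 28.5 CPM in forebrain (log2 difference -3.08 ± 0.37, adjusted p = 1.03e-05). The uroplakin gene Upk1b, which encodes a tetraspanin, stood at 17.6, 15.5 and 19.9 CPM and 83.4, 118, 92.2 and 134 CPM (-2.59 ± 0.22, adjusted p = 5.15e-08). Both were low in every cerebellum library and several times higher in every forebrain library. At 2.41 to 4.44 CPM the cerebellum values of Myo18b rest on few reads. The inhibitory receptor gene Lag3, which binds MHC class II on other cells, stood at 330.5, 249 and 327 CPM and 748, 756, 607 and 866 CPM (-1.30 ± 0.12, adjusted p = 2.58e-07). Transglutaminase Tgm2 differed by -1.72 (adjusted p = 5.97e-06), Ccdc162 by -2.15 (0.00462), Trp53i11 by -1.67 (0.000299), the basement membrane gene Nid2 by -1.56 (0.00029) and Csmd3 by -1.50 (2.53e-05). The remaining named genes were Tmem44 (-1.48), the semaphorin gene Sema4b (-1.40), Tmc7 (-1.33), the Fc receptor-like gene Fcrl1 (-1.27) and Abhd3 (-1.33). The Abhd3 call (adjusted p = 0.0493) was lost without cerebellum library 1, 3 or 4 or forebrain library 1, 3 or 4 (adjusted p 0.0543 to 0.189). Exons of several genes described here overlap a gene on the other strand. Among them are Ptchd1, Gpr65, Cd72, P2ry12, Csf1r, Irf7, Myo18b, Tgm2, Nid2, Ccdc162, Hspa1a, Elmo1, Hexa, Uvrag, Fbrsl1, Ifi30, Nosip, Cd34, Chn2 and Il34. With the strand setting not given such reads cannot be told apart. Some genes, such as Ctsd and Trf, overlap a gene on the same strand.

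Some genes were listed in 1 region's table only and were described by their deposited values. The cerebellum table alone listed 497 genes, and 340 of them exceeded 10 in all 3 NesCreCsf1fl/fl cerebellum libraries. The forebrain table alone listed 252, and 134 of them exceeded 10 in all 4 NesCreCsf1fl/fl forebrain libraries. After H2-Aa and H2-Eb1, the cerebellum genes with the highest lowest library included Cybb, the catalytic subunit of the phagocyte NADPH oxidase (100.1, 82.6 and 64.0 in libraries 1, 3 and 4), 1810011O10Rik (36.0, 57.1 and 48.2) and the interleukin-18 receptor subunit gene Il18rap (57.7, 38.8 and 33.3). In forebrain they were the zinc transporter gene Slc39a12 (30.1, 28.5, 33.8 and 39.0 in libraries 1 to 4), the collagen gene Col6a3 (27.0, 24.4, 31.0 and 35.6), the adhesion gene Sdk1 (30.1, 38.6, 24.4 and 22.4), 2610035D17Rik (22.8, 52.8, 21.6 and 47.2), Ift74 (34.2, 20.4, 31.0 and 23.2) and Fkbp14 (24.9, 21.4, 21.6 and 19.1). Absence from a region's table means that in each of its groups at least 1 library did not exceed 10. Other libraries of that region may have been higher, and absence gives no fold.

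In adult mice with intact Csf1 the same contrast of regions pointed the same way. The Csf1fl/fl mice gave 71 called genes of 9150 (0.776%), 35 higher in cerebellum (0.383%) and 36 lower (0.393%). Of the 166 genes higher in the NesCreCsf1fl/fl cerebellum 162 had the same sign in Csf1fl/fl mice and 32 were called there in that direction, which is 19.3% of the 166 and 91.4% of the 35. Of the 191 lower genes 185 had the same sign and 33 were called, 17.3% of the 191 and 91.7% of the 36. Over all genes, a positive sign in Csf1fl/fl mice was found for 51.2%. The median log2 difference of the 166 genes was 0.686 in Csf1fl/fl mice, and that of the 191 genes was -0.417. Homeostatic genes had a median of -0.371 there. Cd74 differed by 2.57 (adjusted p = 0.00539), Axl by 2.45 (0.000321), Lpl by 2.06 (0.00235), P2ry12 by -0.92 (0.0002) and Upk1b by -2.97 (4.42e-06). Class II levels were uneven between the Csf1fl/fl cerebellum libraries. Cd74 stood at 45.8, 215 and 256 CPM there and at 28.8, 27.3 and 29.4 CPM in Csf1fl/fl forebrain. H2-Ab1 stood at 35.2, 319 and 312 CPM and at 12.6, 33.5 and 52.7 CPM, so its regions overlapped. The same cerebellum library was the lowest for both genes. Chemokines were also higher, with Ccl2 at 1.91 (adjusted p = 0.0002) and Ccl12 at 1.49 (0.0179). Genes called in NesCreCsf1fl/fl mice only included Fxyd5 (1.15 in Csf1fl/fl mice, adjusted p = 0.234), Myo18b (-0.89, 0.446) and C3ar1 (0.43, 0.196), and whether these differ between genotypes was asked in a test of its own.

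That test asked whether the region difference depended on Csf1 genotype, over the 13 adult libraries of both genotypes. No gene of 9156 was called (0.00%), by edgeR without a replicate term, limma or DESeq2, although 350 genes had a raw p under 0.05. The lowest adjusted p was 0.9988. The smallest unadjusted p values belonged to Myo18b (0.000354) and Cd34 (0.000719), Nosip (0.00112), Fxyd5 (0.00124), Mpi (0.00145) and 4933411K20Rik (0.00189). The region difference of Myo18b was -2.18 ± 0.52 log2 units further towards forebrain in NesCreCsf1fl/fl mice. Its levels were 2.41, 4.45 and 2.42 CPM in NesCreCsf1fl/fl cerebellum and 11.8, 7.75 and 17.7 CPM in Csf1fl/fl cerebellum. The region difference of Fxyd5 was 1.86 ± 0.51 log2 units larger in NesCreCsf1fl/fl mice. A p that misses the threshold does not show that the genotypes have the same region difference.

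**Figure D4:**
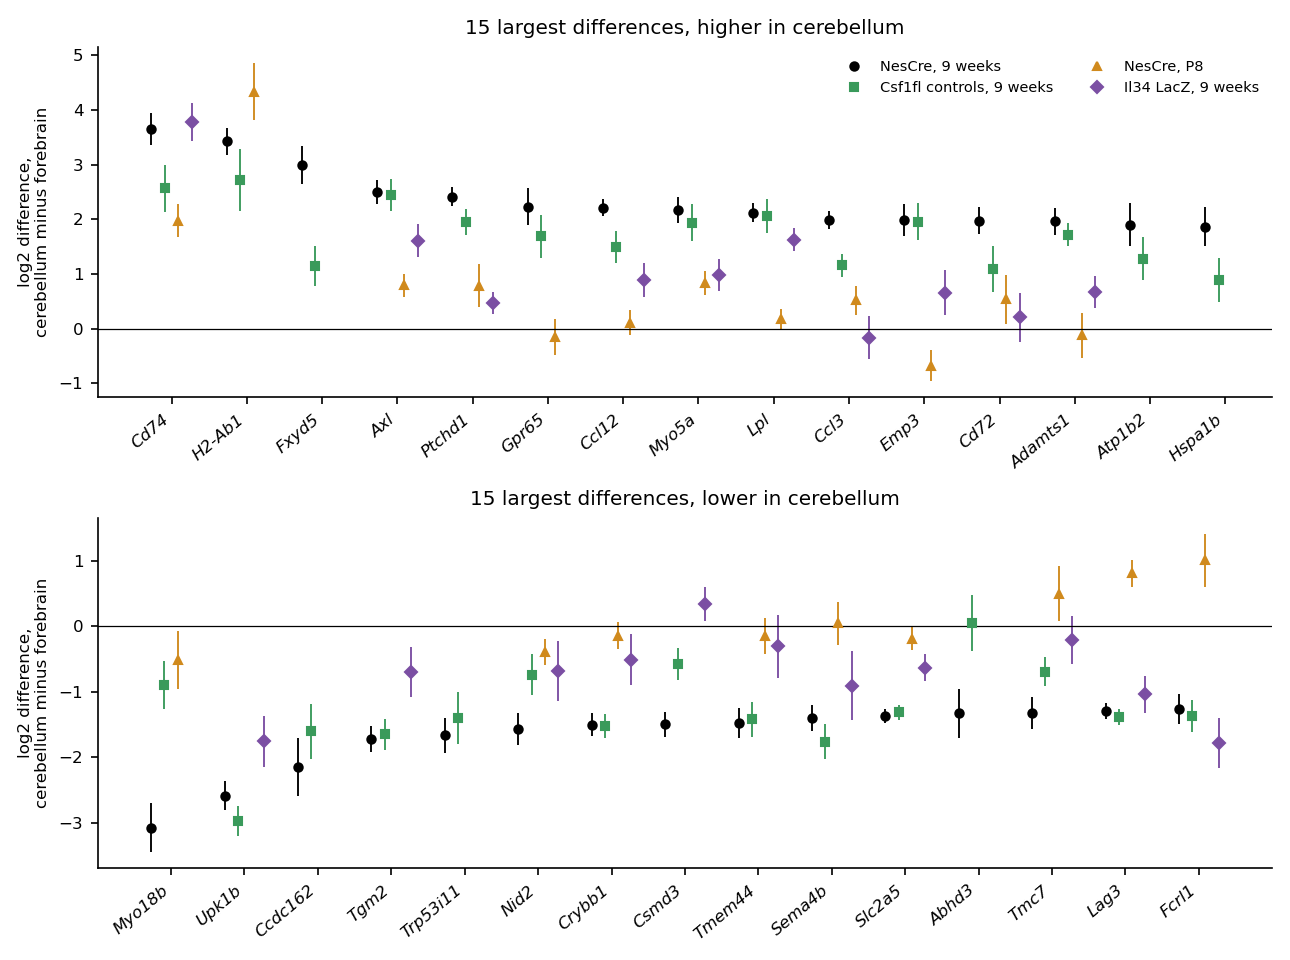
Log2 difference (cerebellum minus forebrain) with its standard error for the 15 genes with the largest differences in each direction, in NesCreCsf1fl/fl mice at 9 weeks, Csf1fl/fl controls at 9 weeks, NesCreCsf1fl/fl pups at P8 and Il34Lacz/Lacz mice at 9 weeks; a gene without a point was not tested there. All of the genes but Abhd3 keep their sign in the Csf1fl/fl adults, and at P8 Lag3 and Emp3 are among those on the other side of 0.

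At P8 fewer genes were called. NesCreCsf1fl/fl pups gave 17 of 8390 (0.203%), 16 higher in cerebellum (0.191%) and 1 lower (0.0119%). Of the 166 adult genes 142 were tested at P8, 89 had the same sign and 3 were called. Of the 191 lower genes 179 were tested, 88 had the same sign and 0 were called. Over all genes tested at both ages, 49.6% had a positive sign at P8 and 50.4% a negative one. The medians of the higher and lower adult genes at P8 were 0.164 and 0.00508. MHC class II genes already differed between regions, with H2-Ab1 at 4.34 (adjusted p = 5.92e-05) and Cd74 at 1.97 (adjusted p = 0.0021). Other leading genes did not pass the test at P8, such as Apoe (0.75, adjusted p = 0.27), Axl (0.79, 0.209) and P2ry12 (-0.49, 0.509).

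The difference between the ages was tested with both ages in 1 fit, which shares the 7 adult libraries with the contrast above. Pup libraries carry HB and FB in their titles and adult ones Cerebellum and Cerebrum, so age cannot be told apart from library series. The region difference differed between P8 and 9 weeks for 47 genes of 7974 (0.589%). It had a larger value (cerebellum minus forebrain) in adults for 25 genes (0.314%) and a smaller one for 22 (0.276%). Ccl12 was similar in both regions at P8, at 131, 141 and 112 CPM in cerebellum and 102, 167 and 88.9 CPM in forebrain. In adults it was 235, 208 and 312 CPM and 47.9, 53.3, 64.2 and 51.8 CPM (difference of region differences 2.12 ± 0.28, adjusted p = 5.51e-05). The regions thus overlapped in pups and were apart in adults. Lpl was high in both regions of pups, at 512, 421 and 366 CPM and 492, 389 and 294 CPM. In adults it was lower in both, at 182, 284 and 239 CPM in cerebellum and 43.3, 73.8, 47.2 and 51.8 CPM in forebrain (1.96 ± 0.26, adjusted p = 5.51e-05). Emp3 (2.68, adjusted p = 0.00041), the leukocyte gene Lsp1 (1.49, 0.000124) and Ifi30, a thiol reductase of antigen processing (1.11, 0.00318), also had larger values in adults.

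Genes that became more forebrain-biased with age were led by Lag3. In pups it was 232, 196 and 304 CPM in cerebellum and 129.5, 131 and 157 CPM in forebrain, and in adults 345, 262 and 343 CPM and 783, 787, 636 and 899.6 CPM. The order of the regions was the opposite in adults (-2.08 ± 0.23, adjusted p = 2.16e-06). The iron exporter gene Slc40a1 was at 578, 541 and 339 CPM and 310, 286 and 284 CPM in pups and at 237, 200.4 and 261 CPM and 508, 387, 402 and 396 CPM in adults, also with the opposite order (-1.61 ± 0.22, adjusted p = 8.83e-05). Slc2a5 was near 248, 206 and 244 CPM in the cerebellum of pups and 245, 255 and 304 CPM in their forebrain, so most of its adult difference was absent in pups (-1.15 ± 0.19, adjusted p = 0.00136). The sterol exporter gene Abcg1 also had a smaller value in adults (-1.24, adjusted p = 0.00041). The count of 47 fell to 16 without P8 forebrain library 1 and rose to 157 without P8 forebrain library 3. It was 23 without P8 cerebellum library 2, and 31 without adult cerebellum library 1 or adult forebrain library 1.

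The contrast of regions was also made in mice that lack the other ligand. Il34Lacz/Lacz mice gave 8 called genes of 8348 (0.0958%), 7 higher in cerebellum (0.0839%) and 1 lower (0.0120%), from 2 cerebellum and 3 forebrain libraries of lower depth. Of the 166 genes 143 were tested there, 115 had the same sign and 3 were called. Of the 191 genes 186 were tested, 146 had the same sign and 1 was called, Fcrls (-1.30, adjusted p = 0.0465). Over all genes tested in both lines, 51.8% had a positive sign in Il34Lacz/Lacz mice and 48.2% a negative one. Cd74 was higher in the cerebellum of these mice as well (3.78, adjusted p = 0.00092), as was Lpl (1.63, adjusted p = 0.0201).

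In a fit of both mutants, which again shares the 7 libraries, the region difference differed between loss of Csf1 and loss of Il34 for 52 genes of 8006 (0.650%). It was larger without Csf1 for 13 (0.162%) and smaller for 39 (0.487%). The mutants are separate lines whose libraries carry titles of different form, and controls of neither line enter this fit. Line and library series therefore cannot be told apart from the ligand lost. Apoe was alike in both regions without Il34, at 1307 and 1451 CPM in cerebellum and 1333, 1291 and 1326 CPM in forebrain. Without Csf1 it was 2378, 2876 and 3466 CPM and 1274, 843, 1141 and 826 CPM (difference of region differences 1.44 ± 0.21, adjusted p = 0.000781). The regions were separated without Csf1 by cerebellum levels above and forebrain levels below all of those without Il34. Ptchd1 was 240.4 and 257 CPM in cerebellum and 155, 174 and 207 CPM in forebrain without Il34, and 203, 329 and 279 CPM and 48.8, 41.0, 44.4 and 66.4 CPM without Csf1 (1.94 ± 0.28, adjusted p = 0.000692). The cerebellum levels of the 2 mutants were close, and the forebrain levels differed. C3ar1 was 626 and 641 CPM and 765, 802 and 790.1 CPM without Il34, against 778, 897 and 972 CPM and 484, 512, 501 and 549 CPM without Csf1 (1.10 ± 0.17, adjusted p = 0.000834), so its regions were ordered in opposite ways. C5ar1 (1.34, adjusted p = 0.00367) and the leukocyte receptor gene Lilra5 (2.15, 0.0108) shifted in the same direction, and both calls were lost without Il34Lacz/Lacz cerebellum library 1 (adjusted p = 0.0614 and 0.0851).

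The opposite shift was led by a complement gene and a chemokine receptor gene. C1qc, a chain of C1q, was 3808 and 2601 CPM in cerebellum and 1303, 918 and 1289 CPM in forebrain without Il34. Without Csf1 it was 3091, 4180 and 2445 CPM and 3544, 3951, 3852 and 4311 CPM, so the forebrain of Il34Lacz/Lacz mice stood lowest of the 4 groups (-1.73 ± 0.23, adjusted p = 0.000641). Ccr1 was 49.5 and 69.3 CPM and 11.0, 12.3 and 12.4 CPM without Il34, and 9.20, 9.31 and 11.3 CPM and 24.0, 28.1, 17.6 and 23.4 CPM without Csf1. The order of the regions was opposite in the 2 mutants (-3.50 ± 0.50, adjusted p = 0.000692). The autophagy gene Uvrag (-2.52, adjusted p = 0.000861), Fam49b (-1.94, 0.000781) and Fbrsl1 (-2.27, 0.000861) followed. Uvrag stood at 148, 93.5, 142 and 79.3 CPM and Fam49b at 769, 531, 952 and 476 CPM in the NesCreCsf1fl/fl forebrain libraries 1 to 4, again with libraries 1 and 3 above 2 and 4, and the part of that pattern was not tested. The count of 52 fell to 17 without adult NesCreCsf1fl/fl cerebellum library 4 or without Il34Lacz/Lacz forebrain library 3, and to 20 without Il34Lacz/Lacz cerebellum library 1 or forebrain library 2. It was 32 without NesCreCsf1fl/fl forebrain library 1, 33 without its library 3, and 145 without Il34Lacz/Lacz cerebellum library 2.

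**Figure D5:**
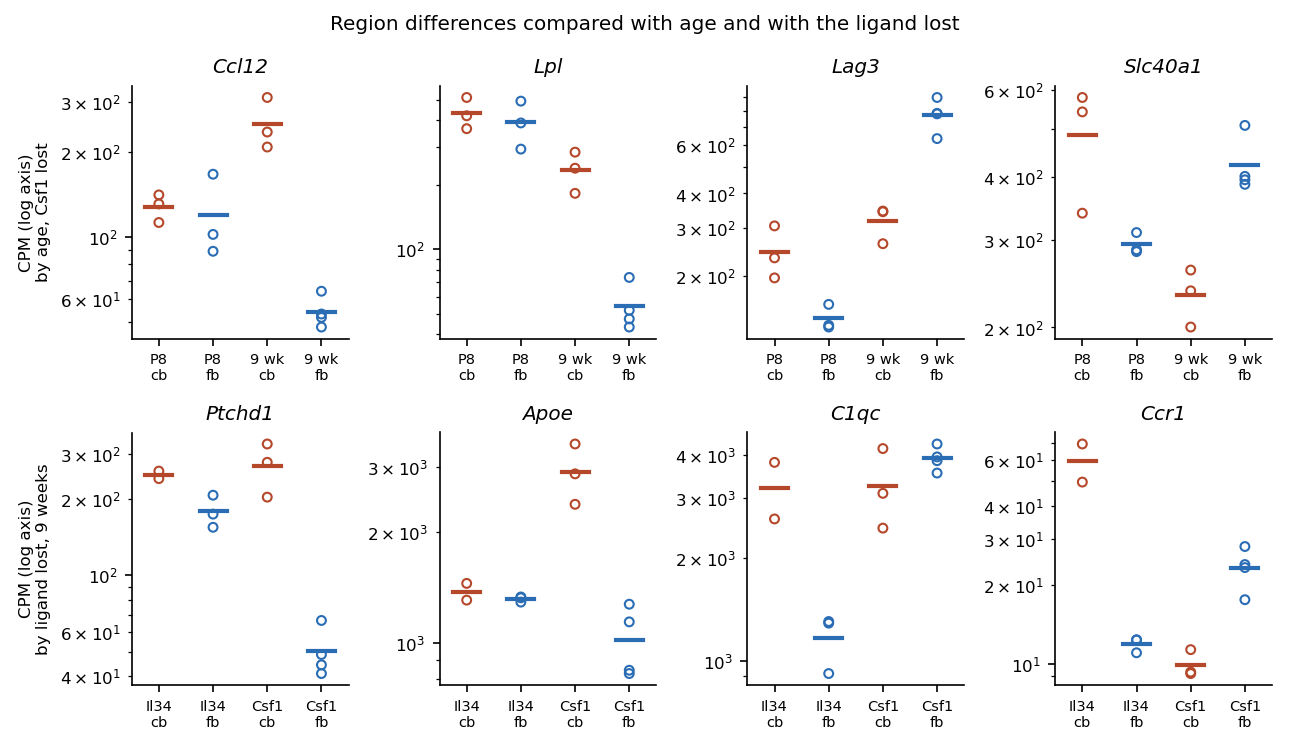
Level (CPM, log axis) of 8 genes by region (cb, cerebellum; fb, forebrain), 1 circle per library, with bars for group means; the upper panels set NesCreCsf1fl/fl pups at P8 beside adults, the lower panels set adults without Il34 beside adults without Csf1. Lag3 and Slc40a1 have the opposite order of regions at the 2 ages, and Ccr1 without either ligand.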

How the data were processed

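RNA of sorted primary mouse microglia was sequenced with an ultra-low-input protocol, per the labels' protocols. STAR 2.5.3, featureCounts and the build mm10 are named in the submitters' processing notes. How strand was set, which annotation was used and how values were normalized is not given in the sources used here. For each region, age and mutant the authors deposited 1 table, in which each value is a normalized signal per gene. After subtraction of 0.1, 100% of the values of every library were whole multiples of 1 step within 0.01 reads, and these whole reads were used. Every gene in the 9-week Csf1 tables exceeds a deposited value of 10 in all libraries of a group. Names turned into dates (17 and 16 in those tables) were left out. The tables hold 9653 and 9408 named genes, of which 9156 are in both and 9152 passed filterByExpr.

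The regions were compared over the 7 libraries with edgeR 4.0.16 (R 4.3.3; TMM factors, quasi-likelihood test, two-sided, no covariate, Benjamini-Hochberg adjustment over all genes tested, threshold 0.05). The same fit served the other conditions, and differences between region differences came from 1 joint fit of 4 groups. CPM use the TMM library sizes of the fit in question, so levels differ slightly between fits. The fits were tested on simulated data. limma 3.58.1 and DESeq2 1.42.0 were alternatives, as were RLE factors, other filters, a pseudocount of 0.1 in place of 1, the deposited values, thinning to equal depth, a replicate block, and leaving out each library; 2 more were chosen after seeing the data. The test named in the design, edgeR, assumed the recovered reads.

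Named genes are the 15 largest differences in each direction among called genes that do not overlap between regions and whose average log2 CPM is 3 or more, leaving out predicted and ribosomal protein genes, up to 5 called members of each list (or up to 3 of the highest expressed), up to 5 genes per direction of each difference between conditions, and Csf1, Il34 and Csf1r. Some genes that these rules name are not reported here. Other called members of a list were named after their values were seen. Members, lists and tests were chosen with earlier results of these data known. Levels of different genes are not per length and were not compared. Gene positions are from GENCODE vM21 (162 of 166 symbols found), which is on the assembly of mm10, and promoters from RefSeq GRCm38.p6 (77 of 109 named genes matched).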

Additional observations from a re-analysis of the deposited data

Results flagged for a closer look

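Within the forebrain group, 2 of 108 named genes had a library far from the others, and chance alone marks about 1 in 20 groups. The cerebellum libraries were not checked in this way. Cd72 stood at 10.1 CPM in forebrain library 4, under the other 3 forebrain libraries, and the iron exporter gene Slc40a1 at 485.5 CPM in forebrain library 1, above the other 3.

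For 9 genes described here the region difference without Csf1 differed between 9 weeks and P8 by the test of that difference. The values (9 weeks minus P8, log2) were 2.12 for Ccl12, 1.96 for Lpl, 1.49 for Lsp1, 2.68 for Emp3 and 1.11 for Ifi30. They were -2.08 for Lag3, -1.61 for Slc40a1, -1.24 for Abcg1 and -1.15 for Slc2a5. All 9 are given with their levels or adjusted p-values above. Age cannot be told apart from library series in this comparison.

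For 10 genes the region difference at 9 weeks differed between loss of Csf1 and loss of Il34. The values (Csf1 minus Il34, log2) were 1.94 for Ptchd1, 1.44 for Apoe, 1.10 for C3ar1, 1.34 for C5ar1 and 2.15 for Lilra5. They were -1.73 for C1qc, -3.50 for Ccr1, -1.94 for Fam49b, -2.52 for Uvrag and -2.27 for Fbrsl1. The Il34Lacz/Lacz cerebellum is represented by 2 libraries. Mouse line and library series cannot be told apart from the ligand lost in this comparison.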

How the results depend on the processing

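The count of 357 genes lay between 243 and 377 under 9 alternatives (limma with either pseudocount, the deposited values, DESeq2, RLE factors, both other filters, thinning and the 13-library fit). Leaving out 1 library gave 205 to 340. With cerebellum library 4 alone it was 144, and with libraries 1 and 3 against 2 and 4 as a term 524, both chosen after seeing the data. Same-numbered libraries of the 2 regions correlated weakly (r = 0.0881, 0.0774 and 0.133), and the labels do not say what a number marks, so the libraries were not treated as pairs. Each cerebellum library correlated best with its own number, which is a hint from the data only. A replicate block gave 495 genes for the region difference, 2 in place of 0 for the dependence on Csf1 genotype (Leprel1, adjusted p = 0.00947, and Nsun2, adjusted p = 0.0341), 165 in place of 47 for age and 55 for the ligand. DESeq2 gave 103 for age and 89 in place of 52 for the ligand. Leaving out 1 library gave 0 for genotype in every case, 16 to 157 for age and 17 to 145 for the ligand. Of 76 named genes called for the region difference 43 kept their call under every alternative, and no named gene changed sign where it was called in either fit. Another 6 named genes, called under no alternative (Pkm, Itga4, Cxcr2, Ccr2, Cd79b and Ppp3ca), changed sign in the region difference under at least 1 alternative. The ligand and age comparisons draw on libraries of mostly lower depth, with 508182 to 802056 reads in table genes for Il34Lacz/Lacz and 503424 to 1259164 for NesCreCsf1fl/fl at P8, against 1211970 to 1742629 for NesCreCsf1fl/fl at 9 weeks.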

Other observations

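Genes of the cytoplasmic ribosome, a group chosen after its values were seen, were shifted towards cerebellum with few calls. Of 77 ribosomal protein genes tested 76 had a positive log2 difference, with a median of 0.293, and 7 were called higher by edgeR (none lower). Their summed level was 21728 to 23358 CPM in cerebellum and 17237 to 21230 CPM in forebrain. The median lay between 0.247 and 0.403 over the alternatives, and 0 to 32 members were called. In Csf1fl/fl mice 56 of the 77 were positive, with a median of 0.0753 and no call.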
